A study of Mus musculus with 6 samples.

Results

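The mitochondrial ribosomal protein genes were examined in NIH3T3 cells, an immortalized line of mouse embryonic fibroblasts. Their members were the probes for an NM_ transcript whose gene name was Mrpl (large subunit) or Mrps (small subunit) followed by a number and, in some, a letter. The rule found 111 probes for 75 genes, of 61307 probes under 50090 gene names. It used the names alone and no measured value.

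RNA came from 3 kinds of cell, with 2 samples each from different passages. GFP cells carried a retroviral vector for green fluorescent protein alone and served as the control. LT7 and ST7 cells carried the vector for SIRT7 fused to GFP. LT7 cells were long, spindle-shaped cells, and ST7 cells were small cells that had grown out as compact colonies in the same SIRT7 cultures. All were derived as clones and selected with geneticin, so that a difference between groups is also a difference between clones. On the arrays labelled ST7 the brighter Sirt7 probe gave a signal of 2.85 and 3.28, against 3125 and 2480 in GFP, and was not well above background there. In LT7 it gave 3633 and 2782 (adjusted p = 0.47, limma). Where in the transcript these probes lie was not known here, and so it was not known whether they read the vector's transcript. By one of its probes Fn1, an extracellular matrix protein, gave 12385 and 9779 in GFP and 5.29 and 5.99 in ST7. Krt18, a keratin of simple epithelia, gave 6.64 and 4.64 in GFP and 1881 and 1755 in ST7. Not every marker moved this way. Cdh1, the epithelial cadherin, was at background in GFP (2.96 and 2.98) and in ST7 (2.96 and 3.46). By its brighter probe Krt8, another keratin, gave 123 and 62.2 in GFP and 15.3 and 5.82 in ST7. Vim, a fibroblast marker, gave 58774 and 57620 in GFP and still 14612 and 16192 in ST7. These signals are before the shift of each array described below. After it the log2 change in ST7 against GFP was 1.18 for this Krt8 probe (adjusted p = 0.15, limma) and 2.48 for Vim. For the Fn1 and Krt18 probes above it was -6.53 and 12.8. A second Fn1 probe gave 1720 and 1189 in GFP and 24.3 and 20.2 in ST7, well above background there. ST7 is used below as the name of these arrays, with no level of Sirt7 implied.

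The ST7 arrays were dim throughout. Well above background by the scanner software, here also called detected, were 26.4% and 25.5% of all probes in ST7, and 47.4% to 57.5% on the GFP and LT7 arrays. The 75th percentile of the processed signal, which was subtracted on the log2 scale from every array, was 16.3 and 17.1 in ST7 and between 317 and 384 in GFP and LT7. Log2 changes in ST7 are relative to this shift. Of 9 fibroblast markers all 9 were detected in GFP and LT7 and 4 in ST7. Of 5 epithelial markers 1 was above background in GFP and LT7 and 2 in ST7, of 4 macrophage markers 2, 2 and 0, and of 3 endothelial markers 0 in each group. Their part in the results was not tested.

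Mitochondrial ribosomes translate the few messenger RNAs of the mitochondrial genome, which encode core subunits of the respiratory chain and of ATP synthase. All of their proteins are encoded in the nucleus, made in the cytosol and imported. Nuclear respiratory factor 1 (NRF1) and the ETS family factor GABP bind the promoters of many such genes. SIRT7, a nuclear deacetylase of the sirtuin family, is reported to be recruited by NRF1 and to repress mitochondrial ribosomal protein genes, and to act on GABP. The question asked of these arrays was whether the genes are lower in the cells that carry the SIRT7 vector.

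Promoter sequences from RefSeq (GRCm38.p6, 250 bases before to 50 after the start) were found for 66 of the 75 genes, 72 promoters in all. The strict NRF1 letters GCGCATGCG stood on either strand in 7 of the 72 promoters (9.72%), in 1.75% of all 32851 promoters and in 3.44% of the 12501 promoters of genes detected in GFP cells. The ETS letters CCGGAAGT stood in 12 (16.7%), in 3.89% of all promoters and in 7.63% of those of detected genes. The YY1 letters AAGATGGCG stood in 7 (9.72%), against 1.40% and 2.89%. The E-box CACGTG was in 9.72% of the member promoters, 7.15% of all and 9.77% of those of detected genes. The SP1 letters GGGGCGGGG were in 20.8% and 11.4%, but in 20.4% of the promoters of detected genes. The shorter forms GCATGCGC, CCGGAAG and AAGATGGC, which overlap the strict ones, stood in 11.1%, 33.3% and 15.3% of the member promoters and in 2.71%, 8.86% and 2.75% of all. Among the promoters of detected genes the shares were 5.00%, 16.6% and 4.34%. No gene had both the strict NRF1 and the strict ETS letters, and 19 had either. These are matches of letters, not binding sites.

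Stretches of 4 of these promoters, all upstream of the start, show where the letters stand. Capitals mark the NRF1 match in Mrpl9 (chr3:94443276-94443335, plus strand) and Mrpl22 (chr11:58171604-58171663, plus strand), and the ETS match in Mrpl3 (chr9:105053208-105053267, plus strand) and Mrps22 (chr9:98601680-98601739, minus strand). Each is written along the strand of the gene.
Mrpl9: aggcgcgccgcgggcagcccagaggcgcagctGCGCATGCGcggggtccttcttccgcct
Mrpl22: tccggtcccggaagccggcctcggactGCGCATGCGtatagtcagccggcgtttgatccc
Mrpl3: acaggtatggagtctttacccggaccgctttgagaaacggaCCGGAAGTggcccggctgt
Mrps22: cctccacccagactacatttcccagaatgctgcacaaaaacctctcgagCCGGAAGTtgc

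In GFP cells the genes were well expressed. All 75 had a probe well above background on both GFP arrays, as did 109 of the 111 probes (98.2%). The median signal of the 111 probes was 2677 and 2706 for GFP, against 2667 and 2419 for LT7 and only 3.09 and 3.54 for ST7. Most members lay at high signal in GFP and LT7, over a range of 2.87 to 49292 in GFP and 4.30 to 49882 in LT7. On the ST7 arrays they fell into a large number at the lowest signals of the array and a smaller number far above them. The same 109 probes were above background on both LT7 arrays. In ST7 26 probes were above background on both arrays, 2 on 1 array and 83 on neither.

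**Figure D1:**
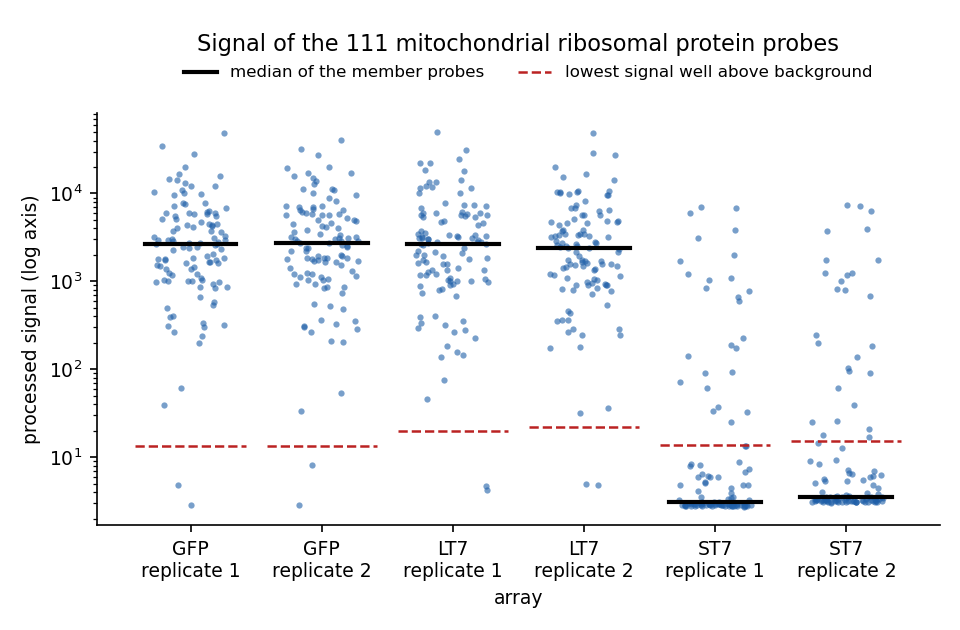
Processed signal (log axis) of the 111 probes on each of the 6 arrays, 1 point per probe, with the median as a black line and the lowest signal that counted as well above background on that array as a dashed line. The medians are 3.09 and 3.54 on the ST7 arrays, where most points lie under the dashed line, and between 2419 and 2706 on the other arrays.

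None of the 111 probes was called between LT7 and GFP. At an adjusted p under 0.05 (limma, Benjamini-Hochberg over all probes) 0 were called, while 0.176% of all probes were. At that share 111 probes could hold 0 calls with no difference from other probes. At an unadjusted p under 0.05 there was 1 member, against 27.2% of all probes, and it was a probe of Mrpl41 not well above background on any array. Those 27.2% include probes at background. In a fit of only the 33296 probes detected on both arrays of a group, 3426 passed, and 0 of the 109 members among them. By the fold rule of the study's methods 0 members were called in either direction, against 2.89% of all probes higher and 3.02% lower. The median log2 change of the members was -0.06, that of all probes 0.17, and that of the 18111 NM_ probes detected in GFP 0.05. In these bulk samples fewer cells of a type and less RNA per cell cannot be told apart.

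The values of LT7 and GFP lay close together for almost all members. Among the 109 detected probes 96.3% changed by less than 0.5 on the log2 scale, against 75.5% of the detected NM_ probes. The sets were not matched for signal, and its part in this difference was not tested. The quartiles of the member changes were -0.19 and 0.11. Both LT7 arrays lay above both GFP arrays, after the shift, for 5 members and below them for 17, and 89 overlapped. Of all probes 38% lay above and 15% below. Before scaling the LT7 arrays lay below both GFP arrays for 52 members (46.8%) and above them for 5, and 54 overlapped, while 20.8% of all probes lay below and 33.1% above. With no scaling the median change of the members was -0.16, and again 0 were called (7 at an unadjusted p under 0.05, limma). The median standard error was 0.25, so that the 95% interval of a member's change was 1.25 wide, and it held 0 for each of the 109 detected probes. For 80 of them the interval lay within 1 log2 unit on either side of 0. After the shift a 2-fold change was therefore outside the interval for these 80. The spread behind the interval is shared by the 3 groups, ST7 included, where most members were at background. The median absolute difference between replicates was 0.13 in ST7, 0.30 in GFP and 0.19 in LT7 (log2, after the shift). An interval from GFP and LT7 alone is not given here. Nor does the result for these 80 probes extend to every scaling. With spike-in scaling the median change was -2.27 for the members and -2.05 for all probes, with 0 members called.

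**Figure D2:**
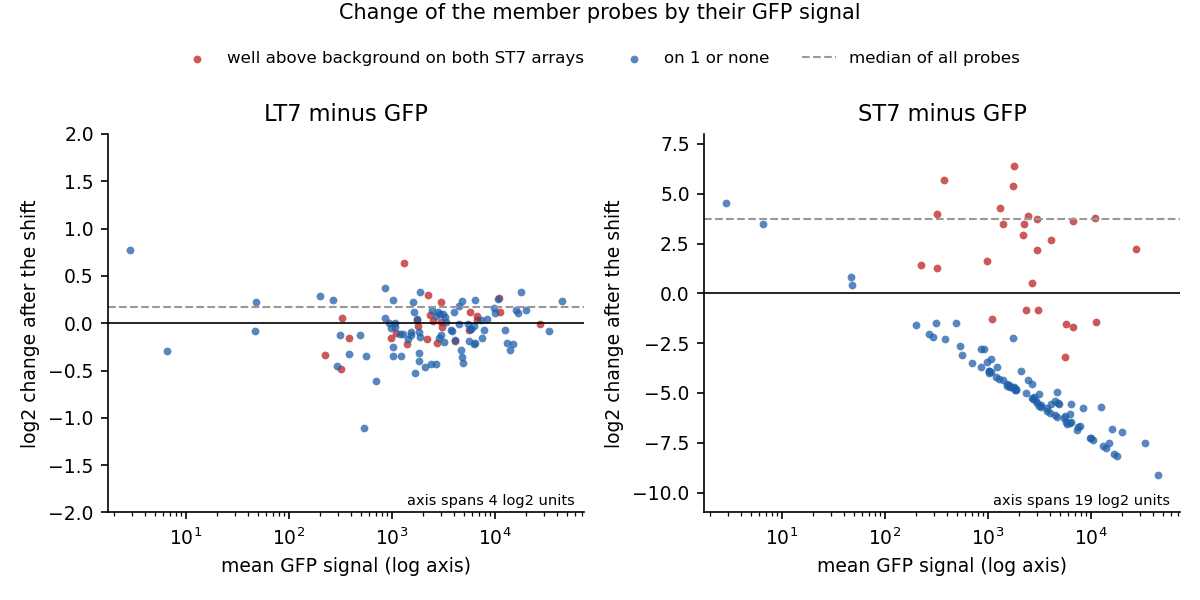
Log2 change of each member probe against its mean GFP signal (log axis), for LT7 minus GFP on the left and ST7 minus GFP on the right, with different vertical scales. Points are red where the probe was well above background on both ST7 arrays, the dashed line is the median of all probes (0.17 and 3.72), and the LT7 changes run from -1.11 to 0.77 while the ST7 changes run from -9.10 to 6.37.

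The most extreme members in LT7 had small changes by the brightest probe of each gene, which is the one with the highest mean level over the 6 arrays after the shift. Probes of a gene are numbered in that order. Mrps23, a small subunit protein, read 839 and 1763 on the GFP arrays and 1827 and 1708 in LT7. The GFP values lay on either side of LT7 replicate 2, and the log2 change was 0.64 (SE 0.45, adjusted p = 0.46, limma). The other Mrps23 probe went the other way, with 1816 and 1803 in GFP and 1025 and 1599 in LT7, a change of -0.40 (adjusted p = 0.50). The next highest changes were 0.33 in Mrps6 and Mrps14, 0.30 in Mrps11 and 0.26 in Mrpl51.

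At the low end, Mrps35, a small subunit protein, had 1951 and 2203 in GFP and 1180 and 1678 in LT7. Both LT7 values were below both GFP values before scaling, and the log2 change was -0.46 (SE 0.64, adjusted p = 0.73, limma). The SE and p also take in the spread of the ST7 arrays, where this probe was at background, at 8.12 on average. Mrpl21 gave 2306 and 2429 in GFP against 1565 and 1715 in LT7, a change of -0.43 (adjusted p = 0.32). Mrpl16, Mrpl49 and Mrpl15 changed by -0.42, -0.36 and -0.35. All 3 probes of Mrpl49 pointed the same way, with changes of -0.36, -0.44 and -0.53 and adjusted p of 0.40, 0.29 and 0.20. The lowest change of any probe was -1.11 in the dimmest of 3 probes for Mrps5, with 540 and 533 in GFP and 146 and 368 in LT7 (adjusted p = 0.29). The other Mrps5 probes changed by -0.21 and 0.06.

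Members with particular roles were not called in LT7 either. Mrpl12, the stalk protein that also binds the mitochondrial RNA polymerase, gave 12167 and 13878 in GFP and 11573 and 9546 in LT7 (log2 change -0.21, adjusted p = 0.66). Mrps12, a protein of the decoding centre, gave 2948 and 3342 against 3506 and 2803 (0.10, adjusted p = 0.93). Mrpl3, which lies near the peptidyl transferase centre, gave 1475 and 1300 against 1016 and 1216 (-0.22, adjusted p = 0.63). Mrps16 and Mrps22, whose loss in people causes inherited defects of mitochondrial translation, changed by 0.11 and -0.32 (adjusted p = 0.82 and 0.51). Mrpl41, a large subunit protein that can bind Bcl2, changed by -0.07.

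The 3 relatives of a bacterial small subunit protein, Mrps18a, Mrps18b and Mrps18c, changed by 0.12, 0.05 and 0.14 in LT7. Mrps18a is built into the large subunit in spite of its name, as is Mrps30, which changed by -0.20. Mrps36, now known as a part of the alpha-ketoglutarate dehydrogenase complex and not of the ribosome, changed by -0.11. The 69 probes of the 48 large subunit genes had a median change of -0.07 and the 40 probes of the 26 small subunit genes one of 0.01. For the 64 probes of genes that the current nomenclature names after a bacterial protein the median was 0.00, and for the 45 of genes that it names as mitochondrial alone it was -0.09.

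In ST7 most members were not detected. Against GFP 88 probes were called lower and 20 higher (limma, adjusted p under 0.05), while 19.8% of all probes were called lower and 70.7% higher (90.6% in either direction). Among the NM_ probes detected in GFP 47.7% were called lower. The median log2 change of the members was -4.53, that of all probes 3.72, and that of the detected NM_ probes -0.61. Of the member probes detected in GFP 23.9% were detected on both ST7 arrays as well, against 33.5% of the NM_ probes. By gene, 25 of 75 had a probe above background on both ST7 arrays, 2 on 1 array and 48 on neither.

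How many members counted as higher depended on the scaling. With no scaling 102 were called lower and 3 higher, against 25571 and 2624 of all 61307 probes. With the percentile taken over probes above background on all 6 arrays the calls were 92 and 15, against 16992 and 33857. With quantile normalization they were 85 and 20, against 15073 and 20203. With normexp background correction they were 84 and 20, against 10626 and 47058, and with spike-in scaling 88 and 0, against 13703 and 242. The median change of the members was below 0 under all 6, from -8.93 with no scaling to -2.54 with normexp. A lower call held under all 6 scalings for 80 members and a higher call for 0. The same count over all probes was not made. Before any scaling both ST7 signals were below both GFP signals for 106 of the 111 members, above them for 4 and overlapping for 1. Of all probes 51.2% lay below and 23.7% above.

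**Figure D3:**
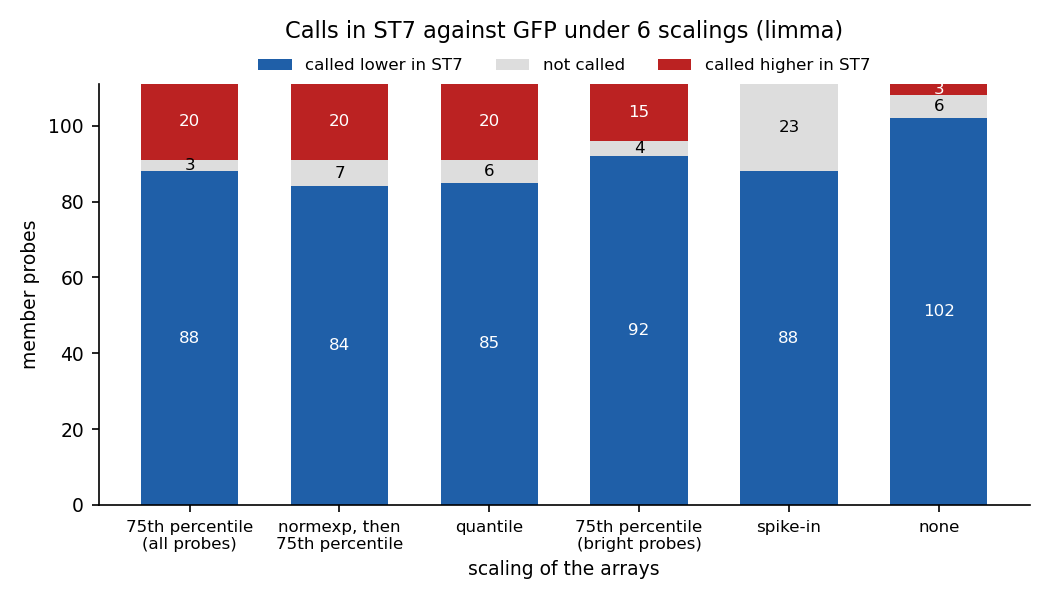
Number of member probes, of 111, called lower, not called or called higher in ST7 against GFP (limma, adjusted p under 0.05) under 6 ways of scaling the arrays. The lower calls range from 84 to 102, and the higher calls from 0 with spike-in scaling to 20. Of all 61307 probes the lower calls range from 10626 to 25571 and the higher calls from 242 to 47058.

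The 83 probes at background in ST7 included the brightest members in GFP. Their signals in ST7 lay between 2.76 and 14.6, and the lowest signal that counted as well above background was 13.9 and 15.5 on the ST7 arrays. For a probe not above background on either array of the dimmer group only a lower limit of the fold was taken, from the bright group's mean over a floor set per array at that lowest signal or, where it was higher, the probe's own, all after the shift. Such a limit was obtained for 76 probes, from at least 1.00-fold to at least 144-fold, with 38 at 10-fold or more. Since the limit depends on the GFP signal, it ranks brightness in GFP and not the size of the loss.

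Mrpl28, a large subunit protein, was the brightest member, at 49292 and 40322 in GFP and 49882 and 48242 in LT7. In ST7 this probe gave 4.53 and 3.27, at least 144-fold lower than in GFP (log2 change -9.10, SE 0.25, adjusted p = 1.7e-05, limma). Mrps6 dropped from 16774 and 19283 in GFP to 2.87 and 3.14 in ST7, with 22290 and 20126 in LT7, at least 57.9-fold lower. Mrps16 was at least 53.4-fold lower, Mrpl11 at least 47.7-fold and Mrpl12 at least 41.8-fold. No ST7 value of these 5 probes came near a GFP or LT7 value.

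The other members named for their role were mostly at background too. Mrps12 gave 6.43 and 3.09 in ST7 (at least 10.1-fold lower), Mrps30 2.85 and 3.09 (at least 10.2-fold lower), and Mrps22 2.87 and 3.13 (at least 5.92-fold lower). Mrps18a gave 3.08 and 3.51, and both probes of Mrps18c between 3.06 and 6.60. Mrps18b alone of these 3 relatives was above background, at 34.1 and 39.6 against 337 and 312 in GFP. Its log2 change was 1.26 after the shift (adjusted p = 0.0017, limma), and it turned to -3.14 with no scaling. Mrpl10 rests on ST7 replicate 2 alone, at 18, since its spot on replicate 1 was marked as an outlier and left out. Mrpl43 was above background on ST7 replicate 2 alone, at 25.5 against 5.08.

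The members still detected in ST7 were read at 21.3 to 7152 on average, with a median of 694. Their ST7 signal before scaling was between 0.526% and 392% of the GFP signal, with a median of 26.2%, and for 11 of the 26 it was over 50%. The brightest were Mrpl51 (6951 and 7352), the first probe of Mrpl40 (6917 and 7133), Mrpl14 (6175 on average), Mrpl27 (3902) and Mrpl22 (3146 and 3747). All of these are large subunit genes.

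For 3 of the detected probes both ST7 signals exceeded both GFP signals before scaling, and their direction was the same under all 6 scalings. The first probe of Mrpl40, a large subunit protein encoded in the region deleted in DiGeorge syndrome, rose from 1742 and 1841 in GFP to 6917 and 7133, with 1633 and 1635 in LT7. Its log2 change was 6.37 (SE 0.21, adjusted p = 1.7e-05, limma), or 82.8-fold after the shift. Mrpl9 rose from 390 and 370 in GFP to 837 and 1009 in ST7, with 281 and 362 in LT7 (5.68, 51.1-fold). Mrpl22, a protein of the peptide exit tunnel, rose from 1647 and 1855 in GFP to 3146 and 3747 in ST7, with 1765 and 1573 in LT7 (5.37, 41.4-fold). With spike-in scaling none of them was called, at 2.16, 1.47 and 1.17 (adjusted p = 0.63, 0.96 and 1.00).

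By the brightest probe of each gene Mrps23 and Mrpl51 were next after the shift, with log2 changes of 4.27 and 3.80, but their signals before scaling were near or below those of GFP. Mrpl51 gave 10411 and 11230 in GFP and 6951 and 7352 in ST7. Mrps23 by its brighter probe gave 839 and 1763 in GFP and 1050 and 1179 in ST7, the only member whose groups overlapped before scaling. With no scaling these changes were -0.60 and -0.13 for Mrpl51 and Mrps23.

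Probes for the same gene often disagreed in ST7. In 26 genes more than 1 probe was detected in GFP, 60 probes in all. In ST7 12 of these genes had at least 1 probe above background on both arrays and at least 1 on neither, 13 had none on any array, and 0 had all of them above. The range of the log2 change over the probes of a gene had a median of 4.0 in ST7 and 0.21 in LT7. It was over 2 in 19 of the 26 genes in ST7 and in 0 in LT7. Among all 4440 genes with more than 1 detected NM_ probe, 38.6% were split in this way, and the median ranges were 3.38 and 0.29.

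**Figure D4:**
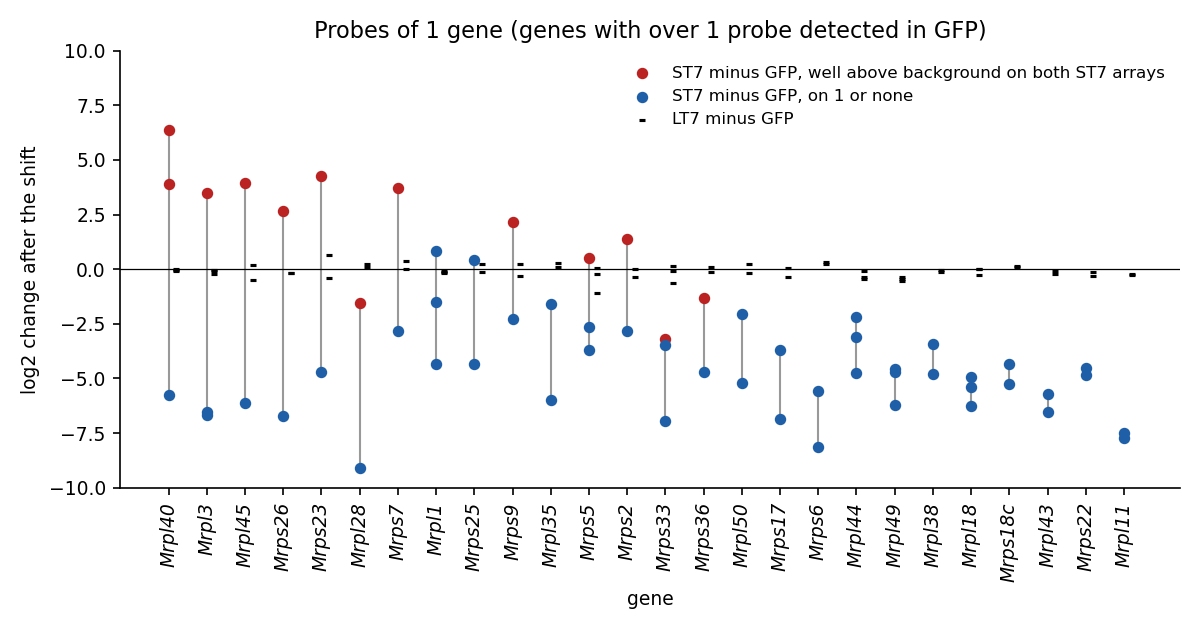
Log2 change in ST7 against GFP of each probe (points) for the 26 member genes with more than 1 probe detected in GFP, joined by a line per gene, with the LT7 changes of the same probes as short dashes. Red points mark probes detected on both ST7 arrays, and the widest spread is 12.1 in Mrpl40, and the widest in LT7 is 1.17.

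Mrpl40 had the widest spread. Its second probe read 2453 and 2495 in GFP and 1719 and 1776 in ST7. Probe 3 read 3726 and 3688 in GFP and 3.02 and 3.54 in ST7, at least 11.9-fold lower, while the first rose. Of the 44 probe pairs that target the same gene, 4 shared 21 or more bases and the rest at most 12. The first and second Mrpl40 probes shared 24 bases, and both were detected in ST7. The 2 probes of Mrps23 shared 21 bases, and the first was detected and the second was not, at 2.97 and 3.57. A stretch of 30 bases of each probe shows the shared bases in capitals.
Mrpl40 probe 1: CTGAAGGCAGGTACAATGATATCAccaagg
Mrpl40 probe 2: aggtccCTGAAGGCAGGTACAATGATATCA
Mrps23 probe 1: GTCAGAAAGCTTTTGATCTCTtcaacccaa
Mrps23 probe 2: atggatctgGTCAGAAAGCTTTTGATCTCT

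The same split was seen in genes whose probes shared no long stretch. The first Mrpl3 probe gave 1475 and 1300 in GFP and 667 and 828 in ST7. The other 2 gave 7302 and 8293, and 5938 and 5664, in GFP, and no more than 4.12 in ST7, so that the probes brighter in GFP were the ones at background in ST7. Their middle 30 bases are shown because the readings of this gene in ST7 turn on which of them is taken.
Mrpl3 probe 1: ggtaaaggttttcagggcgtcatgaaaaga
Mrpl3 probe 2: ggtgtcattctttagacatatttcccagtc
Mrpl3 probe 3: atcgcattccctcggcttagtcatgagagc

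Mrps26 gave 4027 and 4157 in GFP and 1206 and 1237 in ST7 by one probe, and 7797 and 7011 in GFP and 3.10 and 3.64 in ST7 by the other. Mrpl28 gave 5868 and 5642 in GFP and 93.8 and 95.6 in ST7 by its second probe, against 4.53 and 3.27 by the brighter one. Mrpl45 was split in the same way, with 228 and 244 by the probe that was dim in GFP and 2.83 and 3.23 by the bright one. In Mrpl17 and Mrpl41 the probe with the opposite sign was not above background on any array. In LT7 the probes of Mrpl40, Mrpl3, Mrps26 and Mrpl28 changed by no more than 0.24 in either direction. In 10 of the 28 genes with several probes the probes were called in opposite directions in ST7 against GFP. Probes not detected on any array were not left out of this count. Of all probes 70.7% were called higher and 19.8% lower, and the share of all genes with opposite calls was not counted.

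Detection in ST7 moved with the base composition of the probe. Of the member probes with at least 50% G and C, 11 of 21 (52.4%) were above background on both ST7 arrays, against 12 of 65 (18.5%) with 40 to 50% and 3 of 25 (12%) below 40%. Over the NM_ probes detected in GFP the shares were 56.2%, 32.8% and 19.9%. By signal in GFP, detection in ST7 was 4 of 12 member probes under 500, 15 of 65 from 500 to 5000 and 7 of 32 above. It was 21.7% for large and 25% for small subunit probes. The part of base composition in the ST7 readings was not tested.

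The motif counts were also set beside detection in ST7, with no test. The strict NRF1 letters stood in 4 of 25 promoters of genes with a probe above background in ST7 and in 3 of 47 of the others. The ETS letters stood in 4 of 25 and 8 of 47, the YY1 letters in 1 of 25 and 6 of 47, and the SP1 letters in 9 of 25 and 6 of 47. Mrpl9 and Mrpl22, whose promoter letters are printed above, are among the 4 detected genes with the NRF1 letters.

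ST7 was also set against LT7. This comparison shares the ST7 arrays with the one above, so its values are not a second measurement. There were 87 members called lower and 21 higher (limma, adjusted p under 0.05), while 19.7% of all probes were called lower and 71% higher (90.7% in either direction). With no scaling the counts were 103 lower and 3 higher, against 33151 and 3171 of all 61307 probes. With spike-in scaling they were 72 and 0, against 7481 and 812. The median change was -4.24, that of all probes 3.59. Of the NM_ probes detected in GFP 47.8% were called lower, with a median of -0.61. Mrpl28 was at least 169-fold lower and Mrps6 at least 73.0-fold. Mrpl40, Mrpl9 and Mrpl22 were 84.7, 56.8 and 40.6-fold higher after the shift. The mean of LT7 lay between those of GFP and ST7 for 64 of the 111 members (57.7%) and for 57.4% of all probes.

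Other proteins of this ribosome have genes without an Mrp name with a subunit letter. None of 7 such genes was called in LT7, where 0.176% of all probes were. At that share a list of this size could be empty with no difference from other genes. In ST7 5 were called lower and 1 higher by the brightest probe, against 19.8% and 70.7% of all probes. Of the NM_ probes detected in GFP 47.7% were called lower in ST7. Dap3, the GTP-binding protein of the small subunit, dropped from 16923 and 15212 in GFP to 2.89 and 3.34 in ST7, with 20039 and 16025 in LT7 (at least 51.7-fold lower). Chchd1 was at least 76.3-fold lower, Mrp63 at least 38.8-fold and Ptcd3 at least 29.6-fold. Ict1, the large subunit protein that releases stalled ribosomes, fell from 6271 and 6926 to 45.0 and 42.8, which was 7.12-fold after the shift. Gadd45gip1 gave 2881 and 3334 in GFP and 3429 and 3580 in ST7 (log2 change 4.58). It was not called with no scaling (0.18, adjusted p = 0.60, limma) or with spike-in scaling (0.37, adjusted p = 1.00), and its other probe, at 159 and 125 in GFP, gave 2.85 and 3.18. Aurkaip1 was not called, at 5648 and 6229 in GFP and 333 and 351 in ST7 (0.28, turning to -4.12 with no scaling).

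Factors that act with this ribosome were not called in LT7. Of the genes found on the array, 0 of 14 translation factors, 0 of 19 assembly factors and 0 of 20 mitochondrial tRNA synthetases were called, where 0.176% of all probes were, so that lists of this size could be empty with no difference from other genes. In ST7 the counts higher and lower were 4 and 10, 6 and 11, and 4 and 12, with median changes of -3.00, -1.38 and -1.08. Of all probes 70.7% were called higher and 19.8% lower, with a median of 3.72. Of the NM_ probes detected in GFP 47.7% were called lower, with a median of -0.61.

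None of 13 regulators of these genes was called in LT7 (0.176% of all probes). Ppargc1a, the coactivator PGC-1 alpha, had 535 and 461 in GFP and 267 and 219 in LT7, with a log2 change of -0.94 (adjusted p = 0.10, limma). Its other probe gave 1499 and 1045 against 97.8 and 406 (-2.55, adjusted p = 0.10). Both LT7 values were below both GFP values for each probe. Nrf1 gave 204 and 188 in GFP and 117 and 184 in LT7 (-0.32), Gabpa 705 and 857 against 892 and 778 (0.20), and Gabpb1 75.7 and 81.9 against 45.0 and 55.3 (-0.56). Elk4, an ETS factor reported to recruit SIRT7, was not above background on both arrays of any group. Myc changed by -0.28, Tfam, which packs mitochondrial DNA, by 0.00, and Yy1 by 0.51 (adjusted p = 0.39).

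In ST7 7 of the 13 regulators were called higher and 4 lower after the shift, when 70.7% of all probes were called higher and 19.8% lower. Of the NM_ probes detected in GFP 47.7% were called lower. Esrra, the nuclear receptor that works with PGC-1 coactivators, rose from 1735 and 1470 in GFP to 3961 and 3990 in ST7, with 1264 and 984 in LT7. It was higher before and after scaling (log2 change 5.71). So was Ppargc1b by its brighter probe, with 366 and 270 in GFP and 631 and 577 in ST7 (5.34). The other Ppargc1b probe was lower in ST7 before scaling, with 134 and 154 in GFP and 38.1 and 31.6 in ST7. Yy1 gave 996 and 1080 in GFP and 1477 and 1681 in ST7 (5.00). With spike-in scaling the changes of Esrra, Yy1 and the brighter Ppargc1b probe were not called. That of Yy1 was not called with no scaling either (0.60, adjusted p = 0.20, limma). By the brightest probe Myc at 2.85 and 3.20, Tfam at 3.26 and 3.13, and Tfb2m at 2.86 and 3.12 were at background in ST7, as were the other probes of Tfam and Tfb2m. A Myc probe that was dim in GFP (261 and 248) was above background on ST7 replicate 2, at 17.5 against 4.93. For Gabpa the 3 probes gave 36.9 and 31.4, 112 and 113, and 2.84 and 3.14 in ST7.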

How the data were processed

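The arrays were Agilent one-colour 60-base oligonucleotide arrays of 62976 spots, hybridized with Cy3-labelled RNA. The authors deposited the scanner output of Agilent Feature Extraction, in which the intensity of each spot had been background-subtracted (processed signal), and a matrix of log2 values after a percentile shift, which the authors made with GeneSpring; the matrix served as an alternative. Here spots that the scanner software flagged as outliers were dropped, log2 processed signals were averaged over the spots of each probe, and every array was shifted by its own 75th percentile. limma 3.58.1 (R 4.3.3) was fitted to all 6 arrays with the 3 groups, with Benjamini-Hochberg adjustment over all 61307 probes and a threshold of 0.05. A probe counts as well above background where the scanner software marked it so. With 2 arrays per group the number of arrays limits the precision. On simulated arrays the fit was tested before use.

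The members follow a rule on names. The members, the lists (ribosome proteins of other names, translation and assembly factors, tRNA synthetases, regulators, cell type markers) and the named genes were chosen with earlier results of these data known. Genes were named if they had the 5 highest or lowest changes of the brightest probe in a comparison, a set role, or probes of opposite sign. The brightest probe has the highest mean over 6 arrays after the shift, which favours probes detected in ST7. The array files gave 110 of 111 member probes an accession found in RefSeq (GRCm38.p6), under the same symbols. Alternatives were other scalings, background correction, filters, 1 probe per gene, a replicate block, leaving out each array, the study's fold rule and the promoter window. LT7 replicate 1 was the only array of the second scan, so leaving it out also leaves out that scan.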

Additional observations from a re-analysis of the deposited data

How the results depend on the processing

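The 0 calls in LT7 against GFP held under every alternative run, but several runs called almost none of all probes. Of 61307 probes 0 were called with a replicate block, 3 with spike-in scaling, 5 with quantile normalization and 438 with normexp. At such shares 111 probes could hold 0 calls with no difference from other probes. The median change in LT7 was -2.27 with spike-in scaling, 0.0054 over the 26 probes above background on all 6 arrays, and ranged from -0.20 without GFP replicate 1 to 0.10 without GFP replicate 2. Of 111 members 108 were called in ST7 against GFP, and the alternatives over all of them gave 103 (the fold rule) to 108, except for 88 with spike-in scaling. Against LT7 they gave 101 (normexp) to 108, except for 72 with spike-in scaling. With 1 probe per gene 74 of 75 were called in both comparisons, of the 109 probes above background in a group 106, and of the 26 above background on all 6 arrays 25 against GFP and 26 against LT7. Over these 26 the median change was 2.45 against GFP and 2.55 against LT7, since the filter keeps only probes detected in ST7. The median in ST7 against GFP was -8.93 with no scaling, -8.74 with spike-in scaling, -6.47 with the percentile over bright probes, -6.21 with quantile normalization, -4.80 with 1 probe per gene and -2.54 with normexp. Against LT7 these medians were -8.54, -6.23, -6.17, -6.14, -4.65 and -2.38, and -4.32 over probes above background in a group. Leaving out each array gave -4.68 to -4.30 against GFP and -4.31 to -4.22 against LT7. The cause of these shifts was not tested. The replicate numbers were not shown to pair the samples (correlations of 0.04, 0.08 and -0.02), and with a replicate block the calls were 0 in LT7 and 108 in ST7.

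Of 51 named genes, 13 turned their direction in ST7 with a call on either side. With no scaling the changes were -0.90 in Mrpl3, -0.60 in Mrpl51, -0.93 in Mrps11, -3.14 in Mrps18b, -0.13 in Mrps23, -1.74 in Mrps26, -3.90 in Mrps5, -4.12 in Aurkaip1, -4.38 in Nrf1, -1.54 in Gabpb1, -2.04 in Elk4, -3.06 in Ppargc1a and -0.17 in Pprc1. With spike-in scaling they were -0.71 in Mrpl3, -0.41 in Mrpl51, -0.74 in Mrps11, -2.95 in Mrps18b, -1.55 in Mrps26, -1.35 in Gabpb1, -1.85 in Elk4 and -2.87 in Ppargc1a. With the percentile over bright probes they were -0.68 in Mrps18b, -1.44 in Mrps5, -1.66 in Aurkaip1, -1.92 in Nrf1 and -0.60 in Ppargc1a, with normexp -1.05 in Mrps5 and -1.47 in Aurkaip1, and with quantile normalization -1.11 in Elk4. Over probes above background on all 6 arrays the calls in ST7 fell to 2 ribosome proteins of other names, 4 translation factors, 6 assembly factors, 4 tRNA synthetases and 6 regulators, and with spike-in scaling to 11 assembly factors and 4 regulators. In the last 150 bases of the promoters the E-box stood in 2.78% and the SP1 letters in 8.33%.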
